A study of Mus musculus with 63 samples.

Results

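The dentate gyrus (DG) and area CA3 of synaptopodin-deficient (Synpo-/-) organotypic tissue cultures were compared for their transcriptional response to entorhinal cortex lesion (ECL), and the question was for which genes the response differed between both regions. The comparison was made of the 23 regional libraries that the labels call synaptopodin deficient, out of 63 libraries in the series, and all 4 of its groups entered a single fit. These groups were DG from non-lesioned control cultures (n = 7), DG 3 days after the lesion (3 dp ECL, n = 4), CA3 from non-lesioned control cultures (n = 6) and CA3 at 3 dp ECL (n = 6). All 4 groups carried the same Synpo-/- background, the strain B6.129-Synpo tm1Mndl/Dllr, which had been back-crossed at least 10 times to C57BL/6J. Cultures came from mice of either sex at postnatal days 3 to 5 and were kept in vitro for 18 days or longer before the lesion. For each library a single DG or CA3 area was cut out of a culture with a scalpel, so the values describe mixed tissue with neurons and glia, and the p-values measure the spread between such pieces of tissue. A smaller number of cells of a type and less RNA per cell cannot be told apart in these libraries.

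In the entorhino-hippocampal slice, axons of the entorhinal cortex form the perforant path and end on the distal dendrites of dentate granule cells (dGCs) and of CA3 pyramidal cells (CA3-PCs). Transection of the path removes this input from both cell types, while the granule cells and their mossy fibers to CA3 stay in place. Severed axons degenerate in the denervated layers, where microglia take up debris and astrocytes become reactive, with a rise of the intermediate filament proteins GFAP and vimentin. Synaptopodin is an actin-binding protein of the spine apparatus, a stack of smooth endoplasmic reticulum in dendritic spines, and mice without it lack this organelle.

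Marker genes separated the libraries by the region on their label. The summed CPM, counts scaled to a common library size, of 15 dGC markers lay between 634 and 937 in control DG, between 751 and 998 in lesioned DG, between 157 and 300 in control CA3 and between 147 and 203 in lesioned CA3. Prox1, a transcription factor that defines granule cells, was at 120 to 187 CPM in control DG and at 15.2 to 42.4 CPM in control CA3. CA3 pyramidal cell markers summed to 670 to 1076 CPM in control DG and to 1714 to 2091 CPM in control CA3. Some libraries stood apart from their group in such sums or in single genes. Control CA3 replicate 1 had the highest granule cell sum of its group (300 CPM) and the highest Prox1, lesioned CA3 replicate 6 had the lowest sum of microglial markers (814 CPM against 1225 to 1386 CPM in the other 5), control DG replicate 2 had high microglial genes, and control DG replicate 5 had the highest sum of fibroblast markers (1319 CPM). Total counts were 15967190 to 26931489 per library in control DG, 19044938 to 31740658 in lesioned DG, 15485910 to 27138441 in control CA3 and 21657030 to 26810419 in lesioned CA3. Synpo itself was read in every library at 30.7 CPM or more, and counts summed over a whole gene do not show which exons the reads came from, so they are no check of the deletion.

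**Figure D1:**
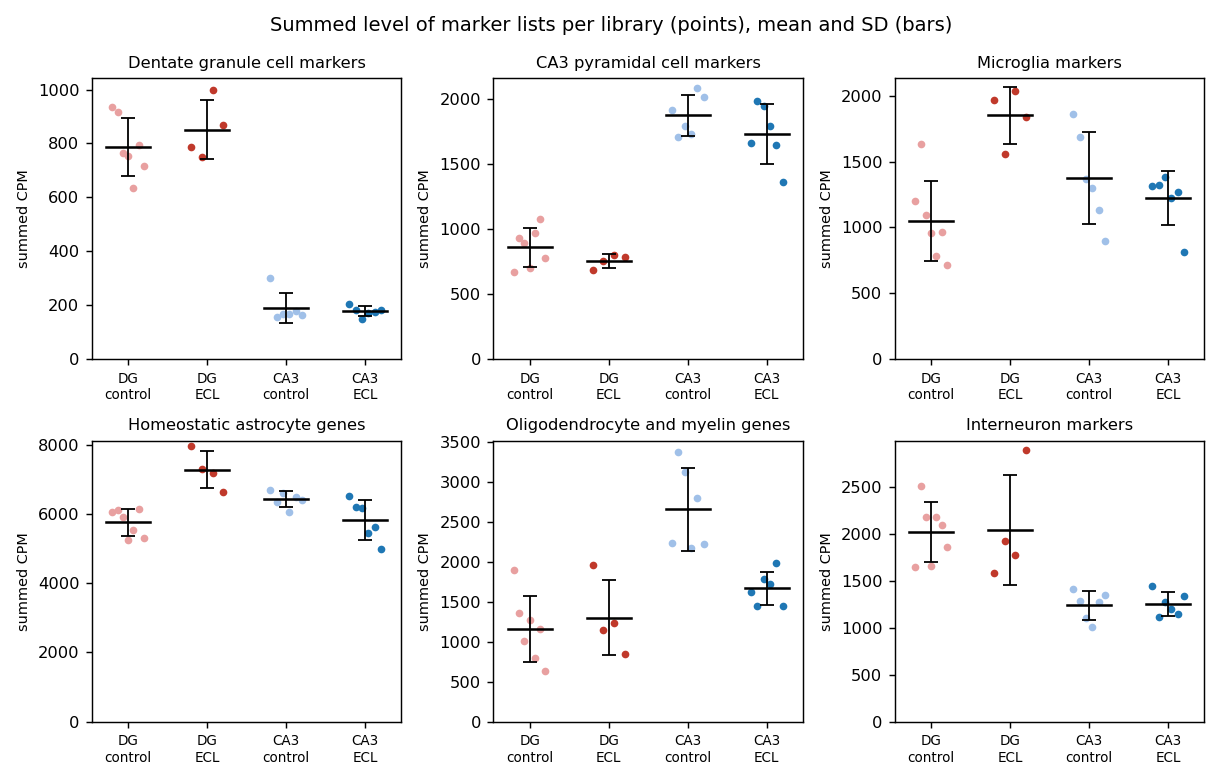
Summed CPM of marker gene lists in each Synpo-/- library, by group (DG and CA3, control and 3 dp ECL). Each point is 1 library, and bars give mean and SD. Granule cell and CA3 pyramidal cell markers separate the regions, microglial markers lie highest in lesioned DG, and oligodendrocyte and myelin genes of lesioned CA3 (1445 to 1989 CPM) lie below those of control CA3 (2181 to 3376 CPM).

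The lesion response of the DG differed from that of CA3 for more genes with a more positive than with a more negative effect in DG. For 139 genes the lesion effect was more positive in DG than in CA3, and for 38 genes it was more negative. Of the 139, 36 belong to 8 lists of glial genes, which have 96 members over the limit, and of the 38, 0 do. The lists were chosen with earlier results of these data known, so these counts describe the calls and are no independent support. The interaction is the log2 fold change (3 dp ECL over control) in DG minus the log2 fold change in CA3. A call required an adjusted p under 0.05 (edgeR quasi-likelihood test, Benjamini-Hochberg over 25435 genes tested) with a mean normalized read count over 300, which 8443 of the tested genes had. The 139 genes are 0.546% and the 38 genes 0.149% of the genes tested, of which only the 8443 could be called. The median interaction of all genes over the limit was 0.00. Removing the trend of counts with gene length from each library raised the number of calls and evened the split, to 206 more positive and 95 more negative, and without control CA3 replicate 1 and lesioned CA3 replicate 6 the split was 114 to 96.

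Lesion effects within a region were far more often called in DG than in CA3. In DG, 452 genes rose (1.78% of those tested) and 501 fell (1.97%), against 5 that rose (0.0197%) and 2 that fell (0.00786%) in CA3. Only the 8443 genes over the limit could be called, so counts of list members over the limit compare with these numbers of 8443. Among the 139 genes with the more positive effect in DG, 133 rose in DG by an adjusted p under 0.05 and 3 passed it in CA3. The interaction rests on the same libraries, so these counts describe the called genes and test nothing further. Their median log2 fold change was 0.75 in DG (0.06 to 2.11) and -0.13 in CA3 (-0.64 to 0.89). In control cultures the mean of 118 of these 139 genes was lower in DG than in CA3, and in lesioned cultures the mean of 136 was higher in DG. Of the 38 genes with the more negative effect in DG, 37 fell in DG by an adjusted p under 0.05 and 0 passed it in CA3. Their median log2 fold change was -0.73 in DG and 0.01 in CA3, and the mean in control cultures was lower in DG than in CA3 for 2 of them. The call itself favours such orders of the group means in both sets of genes. The shares over all genes over the limit were not counted. Only 4 lesioned DG libraries enter these estimates, and the counts depend on each of them. Without lesioned DG replicate 1, 83 genes were called for the interaction in place of 177, and 81 of the 83 were among the 177.

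**Figure D2:**
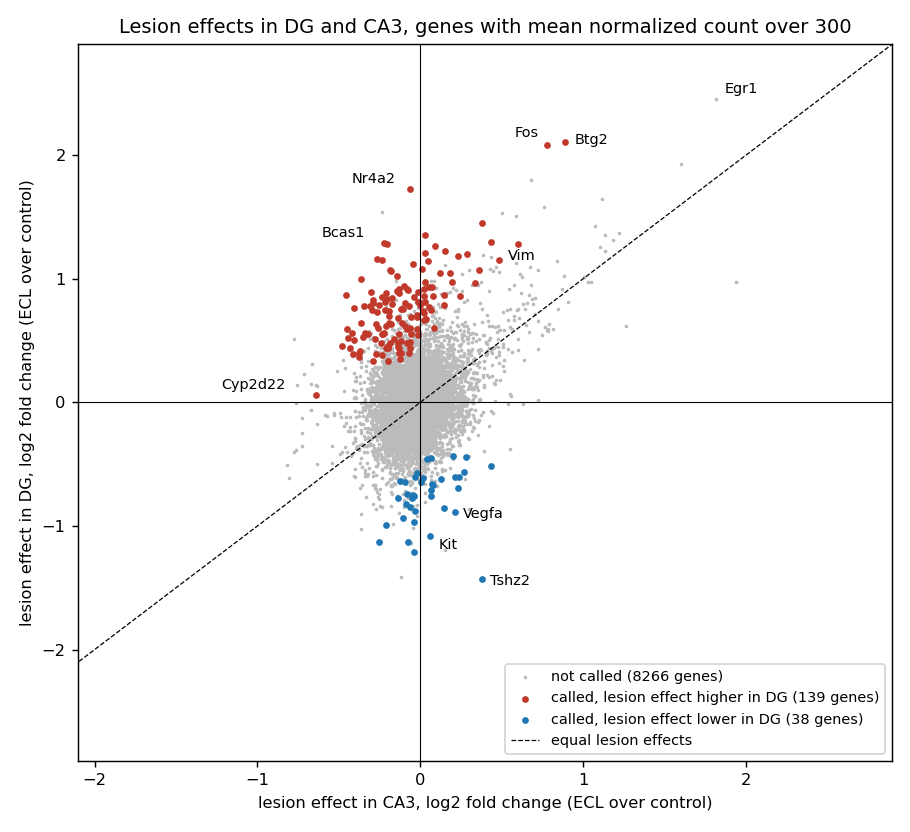
Lesion effect in DG (vertical axis, log2 fold change of 3 dp ECL over control) against that in CA3 (horizontal axis) for the genes with a mean normalized read count over 300 in Synpo-/- libraries. Red points are the 139 genes called with a more positive effect in DG and blue points the 38 with a more negative one, and the dashed line marks equal effects. Most called genes lie far from 0 on the DG axis and near 0 on the CA3 axis, and Egr1, which is not called, lies far out on both.

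The region upstream of 4 of the genes described here is shown from RefSeq (GRCm38.p6), 250 bases before to 50 bases after an annotated transcript start, since the genes called in one direction shared a response in one region. Gfap is an astrocytic and C1qc a microglial gene with the more positive effect in DG, Slc25a18 had the smallest p and Tshz2 the most negative interaction. Capitals mark a match to 1 of 5 motifs searched on both strands, which is a STAT motif (TTCNNNGAA) in Gfap and a PU.1 motif (GAGGAAGT, here on the other strand) in C1qc.
Gfap (chr11:102897151-102897450, minus strand): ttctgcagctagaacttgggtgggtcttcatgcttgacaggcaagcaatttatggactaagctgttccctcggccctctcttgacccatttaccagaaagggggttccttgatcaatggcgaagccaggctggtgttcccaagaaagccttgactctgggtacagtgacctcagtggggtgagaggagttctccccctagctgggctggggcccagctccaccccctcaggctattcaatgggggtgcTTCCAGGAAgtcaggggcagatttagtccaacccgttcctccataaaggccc
C1qc (chr4:136892865-136893164, minus strand): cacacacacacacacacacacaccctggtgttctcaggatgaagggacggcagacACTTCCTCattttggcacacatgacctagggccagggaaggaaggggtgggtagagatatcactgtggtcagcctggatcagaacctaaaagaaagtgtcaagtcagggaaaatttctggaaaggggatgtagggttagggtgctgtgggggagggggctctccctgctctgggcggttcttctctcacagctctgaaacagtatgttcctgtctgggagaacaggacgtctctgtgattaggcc
Slc25a18 (chr6:120773518-120773817, plus strand): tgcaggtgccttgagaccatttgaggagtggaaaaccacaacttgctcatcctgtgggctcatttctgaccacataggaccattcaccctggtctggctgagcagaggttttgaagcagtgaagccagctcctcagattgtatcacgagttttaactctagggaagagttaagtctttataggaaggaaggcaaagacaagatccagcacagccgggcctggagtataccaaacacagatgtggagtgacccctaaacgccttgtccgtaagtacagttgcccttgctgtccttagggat
Tshz2 (chr2:169632259-169632558, plus strand): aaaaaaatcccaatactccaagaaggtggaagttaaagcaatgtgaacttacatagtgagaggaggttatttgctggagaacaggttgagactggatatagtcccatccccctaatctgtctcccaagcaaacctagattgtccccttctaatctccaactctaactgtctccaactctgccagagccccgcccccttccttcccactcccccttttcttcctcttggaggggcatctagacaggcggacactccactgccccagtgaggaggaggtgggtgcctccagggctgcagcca
In Slc25a18 and Tshz2 no letters matched, nor did any in the window of C1qb, a neighbour of C1qc that is not printed. Of the 139 genes with the more positive effect, 112 had 140 such windows, and of the 38 others 30 had 43. A STAT match stood in 3.57% of the windows of the former and in 2.33% of the latter, against 6.31% of the windows of genes over the limit and 8.3% of all 32851 windows. A PU.1 match stood in 2.14% and 0% of the windows, against 2.64% and 3.2%. The AP-1 motif (TGANTCA) was found in 4.29% and 0%, against 4.74% of the windows of genes over the limit, and CRE (TGACGTCA) in 2.86% and 0%, against 3.37%. The EGR motif (GCGNGGGCG) was found in 10.0% and 11.6%, against 11%. A share above that of genes over the limit was thus seen in 1 case, the EGR motif in genes with the more negative effect.

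Many astrocytic genes rose in lesioned DG, and most of them showed no called change in lesioned CA3. Gfap (chr11:102887336-102900912, minus strand), the intermediate filament gene that defines reactive astrocytes, had normalized read counts of 18688 to 27885 with a median of 25788 in control DG, and of 50235, 52833, 56476 and 75138 in lesioned DG. In CA3 it ranged from 32585 to 36306 (median 35531) in control and from 24161 to 44234 (median 38763) in lesioned cultures. All 4 lesioned DG libraries thus lay above all control DG libraries and also above all CA3 libraries, whereas both CA3 groups overlapped and control CA3 lay above control DG. The log2 fold change was 1.27 ± 0.137 (SE) in DG and 0.09 ± 0.129 in CA3, with an interaction of 1.18 ± 0.189 (adjusted p = 0.0026).

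The smallest p of all interactions belonged to Slc25a18 (chr6:120773578-120794336), which encodes a mitochondrial glutamate carrier of astrocytes. Its normalized read count was 559 to 825 (median 653) in control DG and 1206, 1326, 1401 and 1588 in lesioned DG, and 766 to 988 (median 861) and 511 to 940 (median 746) in control and lesioned CA3. The DG groups did not overlap, and the CA3 groups did. The interaction was 1.24 ± 0.176 (adjusted p = 0.00118), with 1.06 ± 0.127 in DG and -0.18 ± 0.12 in CA3. Aldh1l1, a folate enzyme used as a marker of all astrocytes, had an interaction of 0.87 ± 0.124 (adjusted p = 0.00118) with values from 831 to 1042 in lesioned DG, above the 505 to 617 of control DG. Gja1, the main astrocytic gap junction gene, rose from a mean of 5400 ± 850 (SD, n = 7) to 10227 ± 1345 (n = 4) in DG and measured 6137 ± 730 and 5792 ± 1069 (n = 6 each) in CA3 (interaction 1.00 ± 0.182, adjusted p = 0.00541). Aqp4, the water channel of astrocytic endfeet, rose from 4281 ± 431 to 7387 ± 871 in DG against 4029 ± 411 and 4450 ± 220 in CA3, an interaction of 0.64 ± 0.131 (adjusted p = 0.0128).

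These genes belong to a list of 16 homeostatic astrocyte genes, all over the limit, of which 8 had a more positive effect in DG and 0 a more negative one. All 16 estimates were positive, with a median interaction of 0.62, a median of 0.52 in DG and of -0.13 in CA3. Of 16 reactive astrocyte genes over the limit, 5 had a more positive effect in DG. This list differed from the former in CA3, where its median log2 fold change was 0.44 and 3 members rose, against 0.90 and 12 members in DG. Its interaction median was accordingly smaller, at 0.37. Without lesioned DG replicate 1 the counts of calls were 5 for the homeostatic and 3 for the reactive list, and the latter count was also 3 without control CA3 replicate 3 or lesioned DG replicate 2.

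Vim was the clearest case of a gene that rose in both regions, yet more in DG. The vimentin gene (chr2:13573927-13582826) had counts of 7393 to 7889 (median 7554) in control DG and of 15010, 16331, 16829 and 19152 in lesioned DG. In CA3 it had 6204 to 9211 (median 7312) in control and 9502 to 11231 (median 10139) in lesioned cultures. The groups overlapped in neither region, and the lowest lesioned DG library lay above the highest lesioned CA3 library. The log2 fold change was 1.15 ± 0.0959 in DG and 0.49 ± 0.0907 in CA3 (adjusted p = 0.0263), and the interaction was 0.66 ± 0.133 (adjusted p = 0.0128). Lgals1, which encodes galectin-1, had an interaction of 0.71 ± 0.168 (adjusted p = 0.031), and 20 of 23 fits that each left out 1 library still called it, with an adjusted p of 0.101 without lesioned DG replicate 1. Lgals3bp, a galectin-binding secreted glycoprotein, rose in DG from 547 ± 119 to 942 ± 36.9 and measured 777 ± 131 and 612 ± 177 in CA3 (interaction 1.13 ± 0.236, adjusted p = 0.0151). S1pr3, a receptor for sphingosine-1-phosphate, rose in DG from 443 to 549 in control to 1000, 1107, 1113 and 1458 in lesioned libraries. In CA3 its libraries also did not overlap, at 546 to 715 against 829 to 985, but the CA3 effect of 0.44 ± 0.0987 did not pass the adjusted p (0.101), and the interaction was 0.86 ± 0.144 (adjusted p = 0.00323).

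**Figure D3:**
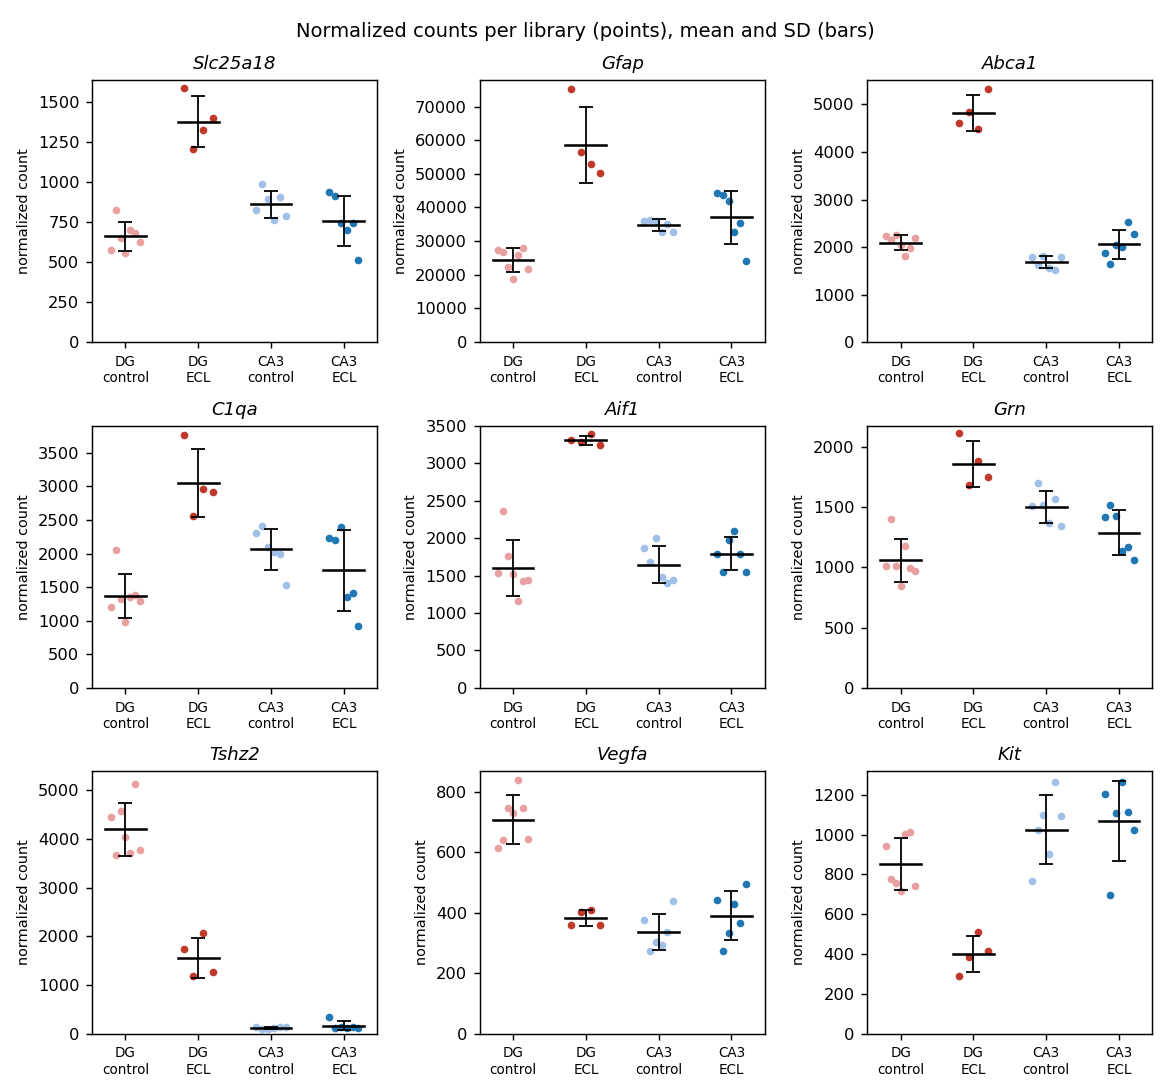
Normalized read counts (vertical axes, from 0) of 9 genes in each Synpo-/- library, by region and lesion. Each point is 1 library, and bars give mean and SD. Gfap in lesioned DG (50235 to 75138) lies above all other libraries, lesioned DG is also the highest group for C1qa, Aif1 and Grn, and Tshz2 in lesioned DG (1177 to 2066) lies below control DG (3677 to 5134).

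Microglial genes followed the astrocytic ones, and 10 of 14 over the limit rose in DG and 0 were called in CA3. All 14 had a positive interaction, 8 were called, and the median was 0.88, made up of 0.67 in DG and -0.22 in CA3. The genes for the 3 chains of complement C1q, which in brain come chiefly from microglia, lie side by side on chromosome 4. C1qa (chr4:136895917-136898803) had counts of 976 to 2052 (median 1329) in control DG, of 2559, 2909, 2964 and 3763 in lesioned DG, of 1536 to 2414 (median 2060) in control CA3 and of 916 to 2395 (median 1808) in lesioned CA3. Lesioned DG lay above all control DG libraries, and lesioned CA3 overlapped with its control. Its interaction was 1.39 ± 0.266 (adjusted p = 0.00949). C1qc, on chr4:136889804-136893065, had 1389 to 3381 (median 1839) in control DG and 3202, 5070, 5365 and 5715 in lesioned DG. Here the lowest lesioned library fell below the highest control library, and the interaction was 1.48 ± 0.275 (adjusted p = 0.00713). C1qb reached 1.04 ± 0.252 (adjusted p = 0.0349) and was called in 10 of the 23 fits with 1 library left out, with an adjusted p of 0.0761 without lesioned DG replicate 3.

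Aif1, which encodes the microglial calcium-binding protein Iba1, had 1161 to 2360 (median 1525) in control DG and 3247, 3288, 3308 and 3393 in lesioned DG, against 1405 to 2005 (median 1581) and 1549 to 2101 (median 1789) in CA3. The 4 lesioned DG libraries were nearly equal and lay above every other library. The interaction was 0.92 ± 0.185 (adjusted p = 0.0128). Cx3cr1, the fractalkine receptor of microglia, had an interaction of 0.99 ± 0.205 (adjusted p = 0.0135), with means of 870 ± 197 and 1443 ± 247 in DG and of 1135 ± 209 and 944 ± 114 in CA3. Some microglial markers were not called. P2ry12, a purinergic receptor of ramified microglia, measured 1142 ± 440 and 1159 ± 162 in DG with an interaction of 0.36 ± 0.366 (adjusted p = 0.816), and Csf1r, the receptor for colony-stimulating factor 1, missed the threshold for the interaction at 0.71 ± 0.187 (adjusted p = 0.0574), while it rose in DG by 0.61 ± 0.136 (adjusted p = 0.00511). The Csf1r interaction was called by DESeq2 (adjusted p = 0.0176), by limma voom (0.0218), without the length trend (0.0482) and with the libraries of both genotypes in 1 fit (0.0157). Tmem119 was under the limit on the mean count and had an interaction of 0.45 ± 0.23 (adjusted p = 0.484).

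The summed CPM of the 16 microglial markers was 717 to 1630 in control DG, 1554 to 2038 in lesioned DG, 898 to 1858 in control CA3 and 814 to 1386 in lesioned CA3. The highest control DG sum was that of replicate 2, whose C1qa, C1qb, Trem2, Ctsz and Plin2 were also the highest of its group. Without the 2 CA3 libraries that stood apart, 6 microglial and 2 complement genes were called for the interaction, with medians of 0.74 and 0.78. The part of the shift in the marker sums in these values was not tested.

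Genes of phagocytic microglia behaved alike. Of 16 over the limit, 14 rose in DG, 0 were called in CA3, and 8 had a more positive effect in DG (median interaction 0.78). Ctsd, the gene of the lysosomal protease cathepsin D, had counts of 3862 to 5830 (median 4701) in control and 6891, 8219, 9175 and 11535 in lesioned DG, and 4968 to 7353 (median 5599) and 4273 to 6079 (median 5451) in CA3. Only the DG groups were separate. Its interaction was 1.02 ± 0.182 (adjusted p = 0.00508). Cst7, an inhibitor of lysosomal cathepsins that microglia express upon activation, had a mean of 367 ± 142 in control and 820 ± 82.9 in lesioned DG and 537 ± 150 and 447 ± 121 in CA3 (interaction 1.43 ± 0.315, adjusted p = 0.0199). Cd63, a tetraspanin of late endosomes, had 0.72 ± 0.153 (adjusted p = 0.0158). Ctsz, another cathepsin gene, had 1.1 ± 0.244 (adjusted p = 0.0216) and was lost only without lesioned DG replicate 1 (adjusted p = 0.0513) among the fits that left out 1 library. Grn, which encodes the lysosomal precursor progranulin, was among the 15 genes with the smallest p, at 847 to 1401 (median 1008) in control DG and 1682, 1747, 1882 and 2113 in lesioned DG, with an interaction of 1.03 ± 0.162 (adjusted p = 0.00219). The number of phagocytic genes called for the interaction was 4 without lesioned DG replicate 1, and 5 without control CA3 replicate 3, lesioned CA3 replicate 4 or lesioned DG replicate 2 or 3.

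All 9 complement genes over the limit had a positive interaction, and 4 were called, namely the 3 C1q genes and Itgam. Itgam, the alpha chain of complement receptor 3, had 159 to 365 in control and 563, 590, 591 and 747 in lesioned DG. Its interaction of 0.95 ± 0.238 (adjusted p = 0.0429) was called in 9 of the 23 fits with 1 library left out, with an adjusted p of 0.123 without lesioned DG replicate 1. C3, the central complement component, gave a different picture and was close in both regions, with 386 ± 111 and 579 ± 213 in DG and 446 ± 109 and 627 ± 77.3 in CA3 (interaction 0.10 ± 0.276, adjusted p = 0.957). It was picked out after its values were seen. The list had 2 calls in place of 4 without each of 12 of the libraries, namely control CA3 replicates 1, 2 and 3, lesioned CA3 replicates 4 and 5, control DG replicates 3, 6 and 7, and each of the 4 lesioned DG libraries.

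Genes that export and store lipids also had the larger effect in DG. All 13 lipid efflux genes over the limit had a positive interaction (median 0.72) and 4 were called. Abca1 (chr4:53030787-53159895), the transporter that loads cholesterol onto apolipoproteins, had counts of 1819 to 2250 (median 2144) in control DG, of 4483, 4601, 4839 and 5329 in lesioned DG, of 1527 to 1819 (median 1708) in control CA3 and of 1646 to 2522 (median 2019) in lesioned CA3. Lesioned DG exceeded every other library, and its 4 values varied little. The log2 fold change was 1.2 ± 0.0979 in DG and 0.29 ± 0.0929 in CA3, which did not pass the adjusted p (0.426), and the interaction was 0.91 ± 0.136 (adjusted p = 0.00118). Plin2, which coats lipid droplets, had 328 to 604 in control and 814, 853, 918 and 985 in lesioned DG, with an interaction of 1.09 ± 0.223 (adjusted p = 0.0128). Trem2, a microglial lipid receptor, had 0.98 ± 0.228 (adjusted p = 0.0275, called in 18 of 23 fits with 1 library left out), and Clu, the apolipoprotein clusterin, 0.79 ± 0.192 (adjusted p = 0.0349, called in 17 of 23). Without lesioned DG replicate 1 their adjusted p was 0.0662 and 0.0801. Apoe, the main apolipoprotein of brain, rose in DG by 1.51 ± 0.353 (adjusted p = 0.00805), but its libraries spread widely and its interaction of 0.92 ± 0.49 was not called (adjusted p = 0.524). Apoe was named after its values were seen. The list had 2 calls without control CA3 replicate 2 or 3, lesioned CA3 replicate 4, or lesioned DG replicate 1 or 3.

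Cholesterol synthesis moved otherwise. Of 16 genes over the limit 4 fell in DG and 0 in CA3, 1 had a more negative effect in DG, and the medians were -0.25 in DG and -0.22 in CA3, so that the median interaction was -0.02. The called gene was Insig1, which retains the regulator of sterol synthesis in the endoplasmic reticulum. It had 661 to 901 (median 773) in control DG, 435, 439, 486 and 497 in lesioned DG, and 432 to 650 (median 590) and 407 to 792 (median 609) in CA3. Lesioned DG lay below all control DG libraries, within the range of CA3. The interaction was -0.82 ± 0.201 (adjusted p = 0.0382), and 16 of 23 fits with 1 library left out called it, with an adjusted p of 0.0919 without lesioned DG replicate 1.

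For oligodendrocyte and myelin genes the difference between regions had another make-up, with a lower median in CA3 and a median closer to 0 in DG, where 3 of 13 over the limit rose (Cnp, Gjc3 and the transcription factor gene Olig1, named after its values were seen). All 13 had a positive interaction, with a median of 0.82, but the median was 0.15 in DG and -0.71 in CA3, where 12 of 13 estimates were negative and 0 were called. The gene of myelin basic protein, Mbp, had 5435 to 8001 (median 6598) in control CA3 and 3711 to 4580 (median 3939) in lesioned CA3, and 2031 to 4720 (median 3174) in control DG and 2502, 2941, 3515 and 5857 in lesioned DG. The CA3 groups did not overlap, and the DG groups did. Still, neither the CA3 effect of -0.71 ± 0.173 (adjusted p = 0.139) nor the interaction of 0.94 ± 0.253 (adjusted p = 0.0623) passed the threshold. The interaction was called by DESeq2 (adjusted p = 0.0166), without the filter on low counts (0.0394) and without the length trend (0.0491).

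Called genes of this list were Cnp, an enzyme of the myelin sheath, with 1.05 ± 0.222 (adjusted p = 0.0162), and Gjc3, an oligodendrocyte gap junction gene, with 1.33 ± 0.291 (adjusted p = 0.0194). Cnp had a mean of 1254 ± 242 in control and 1895 ± 559 in lesioned DG and of 2237 ± 433 and 1636 ± 231 in CA3. Both calls were lost without lesioned DG replicate 1 (adjusted p 0.056 and 0.091), while the list had 5 calls without control DG replicate 1. The summed CPM of the 19 oligodendrocyte and myelin genes was 2181 to 3376 in control CA3 and 1445 to 1989 in lesioned CA3, so that the CA3 groups were separate in the whole list, against 639 to 1904 and 854 to 1964 in DG. The part of this shift in the interactions was not tested. Bcas1, which marks oligodendrocytes that begin to form myelin, was firmer. It had 199 to 371 (median 298) in control DG, 558, 624, 663 and 1005 in lesioned DG, and 328 to 490 (median 428) and 321 to 492 (median 339) in CA3. Only lesioned DG stood above the rest, and the interaction was 1.51 ± 0.221 (adjusted p = 0.00118). Of 4 precursor markers over the limit Bcas1 was the one called, and their median interaction was 0.37.

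Some immediate early genes, which neurons and glia transcribe within minutes of stimulation, rose in DG. Of 10 over the limit, 4 rose in DG and 1, Egr1, in CA3, and 3 had a more positive effect in DG (median interaction 0.43). Nr4a2, an orphan nuclear receptor, had 356 to 946 (median 517) in control DG and 950, 1787, 2031 and 2639 in lesioned DG, against 464 to 1155 (median 797) and 463 to 1031 (median 836) in CA3. Its DG groups were separated by a narrow gap and its CA3 groups spanned the same range. The interaction was 1.79 ± 0.364 (adjusted p = 0.0128). Fos, a subunit of the AP-1 transcription factor, had 602 to 864 (median 661) in control and 1348, 2587, 3818 and 3982 in lesioned DG, and 413 to 792 (median 552) and 604 to 1548 (median 958) in CA3. The interaction of 1.30 ± 0.311 (adjusted p = 0.0325) was called in 15 of 23 fits with 1 library left out, with an adjusted p of 0.118 without lesioned DG replicate 1. Btg2, an antiproliferative gene, rose in DG by 2.11 ± 0.22, with an interaction of 1.22 ± 0.307 (adjusted p = 0.0441) that 9 of 23 such fits called (adjusted p 0.119 without lesioned DG replicate 1). The list had 1 call without control CA3 replicate 2 or 5, lesioned CA3 replicate 3 or 5, control DG replicate 3, or lesioned DG replicate 1 or 2.

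Egr1 rose in both regions. This zinc finger factor had 334 to 578 (median 385) in control DG and 1664, 2008, 2441 and 2708 in lesioned DG, and 200 to 491 (median 275) in control and 722 to 1720 (median 1090) in lesioned CA3. Control and lesioned libraries were separate in each region. The log2 fold change was 2.45 ± 0.217 (adjusted p = 2.58e-08) in DG and 1.82 ± 0.213 (adjusted p = 6.71e-05) in CA3, and the difference of 0.63 ± 0.302 was not called (adjusted p = 0.44). Arc, which encodes a capsid-like protein at synapses and was picked out after its values were seen, was under the limit on the mean count and rose by 3.24 ± 0.342 in DG and by 2.00 ± 0.318 in CA3, with adjusted p of 5.14e-07 and 0.00697 (interaction 1.24 ± 0.468, adjusted p = 0.259).

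In the main fit 7 genes over the limit were called for the lesion effect in CA3, and 3 of these 7 were called for the interaction. DESeq2 called 29 genes in CA3. A gene without a call can still have changed. Beside Egr1 and Vim, A2m, the protease inhibitor alpha-2-macroglobulin, rose by 0.60 in CA3 and by 1.28 in DG (interaction 0.68 ± 0.174, adjusted p = 0.0474). S100a11, a calcium-binding protein, rose by 0.62 in CA3 and 1.02 in DG, and Dusp6, a phosphatase that switches off ERK, by 0.67 and 1.1, and for neither was the difference called (adjusted p = 0.353 and 0.414). Fgf1, a fibroblast growth factor, fell by 0.63 on the log2 scale in CA3, with an estimate of -0.17 in DG that was not called and an interaction of 0.46 (adjusted p = 0.231). Cyp2d22, a cytochrome P450 gene with near-identical relatives whose reads may be shared, fell in CA3 from 773 ± 108 to 495 ± 55.8 and measured 569 ± 84 and 592 ± 98.9 in DG. Its interaction of 0.70 ± 0.171 was called (adjusted p = 0.0375) with an estimate near 0 in DG. These 7 calls were the least certain counts, since 1 gene was left without control CA3 replicate 2. Counts of 3 were left without lesioned CA3 replicate 1, 3 or 4, and 4 without control CA3 replicate 3. Timp1, an inhibitor of matrix metalloproteinases picked out after its values were seen, had nearly equal estimates of 1.02 ± 0.225 in DG and 1.01 ± 0.215 in CA3 (interaction 0.01 ± 0.314, adjusted p = 0.996), of which the DG effect was called (adjusted p = 0.00507) and the CA3 effect was not (0.0658). Ptgs2, which encodes cyclooxygenase-2, was read more in CA3 than in DG of control cultures (608 ± 105 against 106 ± 49.2 in DG) and reached 1090 ± 235 in lesioned CA3 and 177 ± 76.5 in lesioned DG. Its CA3 libraries did not overlap, but neither effect was called (adjusted p = 0.284 in CA3 and 0.106 in DG), and the interaction was -0.09 ± 0.372 (adjusted p = 0.972).

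Other genes among the 15 with the smallest p and a more positive effect in DG are not in the lists of astrocytes or microglia. Absence from these lists does not show in which cells the genes were expressed. Gpr37l1, an orphan receptor, rose in DG from 1560 ± 165 to 2601 ± 453 and measured 2639 ± 271 and 2313 ± 279 in CA3 (interaction 0.93 ± 0.152, adjusted p = 0.00285). In DG it thus came up to the level that CA3 had without lesion. Gsn, which severs actin filaments, had 625 to 812 (median 729) in control and 1105, 1134, 1399 and 2096 in lesioned DG, and 1020 to 2015 (median 1380) and 798 to 1302 (median 1141) in CA3. Here too the lesioned DG libraries lay within the range of control CA3 or just above it (interaction 1.36 ± 0.23, adjusted p = 0.00333). Capg, an actin capping protein of macrophages, had 352 to 689 in control and 890, 972, 993 and 1193 in lesioned DG (interaction 1.25 ± 0.211, adjusted p = 0.00323). Pycard, the inflammasome adaptor ASC, rose from 246 ± 30.5 to 499 ± 57.6 in DG (interaction 1.16 ± 0.191, adjusted p = 0.00285), with an adjusted p of 0.00959 or less when 1 library was left out, though its mean count fell under the limit in 5 of the 23 such fits. Tril, a co-receptor of Toll-like receptors, had an interaction of 0.87 ± 0.146 (adjusted p = 0.00323), and Pygb, the brain form of glycogen phosphorylase, of 0.89 ± 0.154 (adjusted p = 0.00361). Naaa, an amidase that breaks down lipid amides, was the one of these genes whose estimates were of like size and opposite sign, at 0.46 ± 0.117 in DG (adjusted p = 0.0155) and -0.48 ± 0.11 in CA3 (adjusted p = 0.113), with an interaction of 0.94 ± 0.161 (adjusted p = 0.00361).

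Few of the 38 genes with the more negative effect in DG belonged to the lists. The largest difference was that of Tshz2 (chr2:169633013-170071816), a zinc finger transcription factor. It had 3677 to 5134 (median 4043) in control DG, 1177, 1275, 1730 and 2066 in lesioned DG, and 95.8 to 145 (median 132) and 115 to 342 (median 133) in control and lesioned CA3. The DG groups were far apart, while CA3 stayed below both. The log2 fold change was -1.43 ± 0.215 in DG and 0.38 ± 0.21 in CA3 (interaction -1.80 ± 0.298, adjusted p = 0.00285). In lesioned CA3 replicate 1 stood apart (342 against 115 to 148), while the CA3 medians were nearly equal. With 1 library left out the interaction ranged from -1.97 to -1.46. Its relative Tshz3 had 1301 to 1877 in control and 714, 715, 753 and 979 in lesioned DG and 251 to 374 over all CA3 libraries (interaction -0.93 ± 0.166, adjusted p = 0.00508). Both Tshz genes were thus chiefly read in DG and fell there. Both lost the call when the libraries of both genotypes entered 1 fit, with adjusted p of 0.0849 and 0.13.

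Vegfa, the vascular endothelial growth factor, had 614 to 840 (median 730) in control DG and 360, 360, 403 and 410 in lesioned DG, against 274 to 438 (median 320) and 273 to 496 (median 399) in CA3. Lesioned DG came down to the range of CA3. The interaction was -1.1 ± 0.19 (adjusted p = 0.00401). Kit, the receptor tyrosine kinase for stem cell factor, fell in DG from 851 ± 131 to 401 ± 91.1 and measured 1024 ± 171 and 1069 ± 199 in CA3 (interaction -1.14 ± 0.213, adjusted p = 0.00713). Camk4, a calcium-dependent kinase of neuronal nuclei, fell in DG from 1162 ± 232 to 643 ± 178 against 1855 ± 186 and 2057 ± 310 in CA3 (interaction -1.0 ± 0.212, adjusted p = 0.0162), a call that the fit of both genotypes did not make (adjusted p = 0.132). Ero1l, which forms disulfide bonds in the endoplasmic reticulum, had 3055 to 5200 in control and 1079, 2107, 2108 and 2142 in lesioned DG and an interaction of -1.06 ± 0.22 (adjusted p = 0.0147). Cox6a2, a subunit of cytochrome c oxidase, had 898 to 1204 in control and 262, 387, 481 and 638 in lesioned DG and 189 to 350 over all CA3 libraries, with an interaction of -1.17 ± 0.232 (adjusted p = 0.0128). For all of these the DG groups did not overlap, which held for 37 of the 38 genes called with the more negative effect in DG. It also held for 113 of the 139 genes called with the more positive effect. The share over all genes over the limit was not counted. The calls rest on the same libraries, so the lack of overlap describes the called genes and tests nothing further. The rest of the 15 with the smallest p had interactions from -0.63 to -0.83, and among them were Dzank1, G2e3, Zfp81, Pcgf5, Spidr and Rnf217.

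In the neuronal lists 3 genes were called for the interaction, all of them more negative in DG. Over 14 lists of neuronal markers, receptors, channels and synaptic genes, 174 genes were over the limit, of which 0 had a more positive and 3 a more negative effect in DG, with a median interaction of -0.07 and medians of -0.16 in DG and -0.07 in CA3. The 3 of 174 compare with 38 of the 8443 genes over the limit called as more negative, and with 177 called in either direction. Other settings called up to 5 potassium channel, 4 postsynaptic scaffold, 2 vesicle and 2 sodium and calcium channel genes as more negative in DG. Over the 8 lists of glial genes, 96 were over the limit, 36 had a more positive effect, against 139 of 8443, and 0 a more negative one. Of the 96 estimates 93 were positive (median 0.69). Glial and neuronal lists were chosen with earlier results of these data known, so their contrast is a description. The 3 neuronal genes were Dlg1, Homer2 and Kcnj3. Dlg1, the scaffold protein SAP97, had 1940 to 2322 (median 2024) in control DG, 1000, 1278, 1322 and 1366 in lesioned DG and 817 to 1078 over all CA3 libraries (interaction -0.72 ± 0.138, adjusted p = 0.00986). Homer2, which links metabotropic glutamate receptors to calcium stores, fell in DG from 790 ± 109 to 583 ± 54.4 and measured 664 ± 85.2 and 809 ± 108 in CA3 (interaction -0.72 ± 0.16, adjusted p = 0.0209). Kcnj3, a G protein-gated potassium channel, fell from 3154 ± 331 to 2074 ± 354 in DG and measured 2760 ± 216 and 2700 ± 147 in CA3 (interaction -0.57 ± 0.139, adjusted p = 0.0346). Homer2 was called in 21 and Kcnj3 in 20 of 23 fits with 1 library left out, with highest adjusted p of 0.0553 without lesioned DG replicate 1 and of 0.111 without lesioned DG replicate 4. In the fit of both genotypes neither was called (adjusted p = 0.0625 and 0.0934).

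Of all 8443 genes over the limit 501 fell in DG and 2 in CA3, which is the share to set beside the counts that follow. Among 26 potassium channel genes over the limit 7 fell in DG and 0 in CA3, with a median interaction of -0.24. Among 18 sodium and calcium channel genes 6 fell in DG, 0 in CA3, and 0 were called for the interaction (median -0.20). Scn2a, an axonal sodium channel, had 8981 to 11919 (median 10378) in control DG and 6376, 7762, 8084 and 8295 in lesioned DG without overlap, and the interaction of -0.34 ± 0.129 was not called (adjusted p = 0.277). Of 11 GABA-A receptor genes 3 fell in DG (median interaction -0.24), of 26 synaptic vesicle and active zone genes 3 (median -0.09), and of 15 postsynaptic scaffold genes 4 (median -0.05). AMPA and kainate receptors (14 genes, median -0.01) and NMDA and metabotropic receptors (7 genes, median -0.11) had 0 calls for the interaction. For Gria2, the AMPA receptor subunit with the most counts, the mean was 34810 ± 2351 in control and 28863 ± 2843 in lesioned DG, and the interaction was -0.14 ± 0.122 (adjusted p = 0.782). Granule cell markers (10 over the limit, median interaction 0.14), CA3 pyramidal cell markers (12, median 0.01), mossy cell markers (5, median 0.06), immature granule cell genes (11, median 0.04), CA1 and subiculum markers (4, median 0.04), interneuron markers (13, median -0.05) and neuropeptide genes (12, median -0.09) had 0 calls for the interaction. A p over the threshold does not show that these genes responded alike in both regions.

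**Figure D4:**
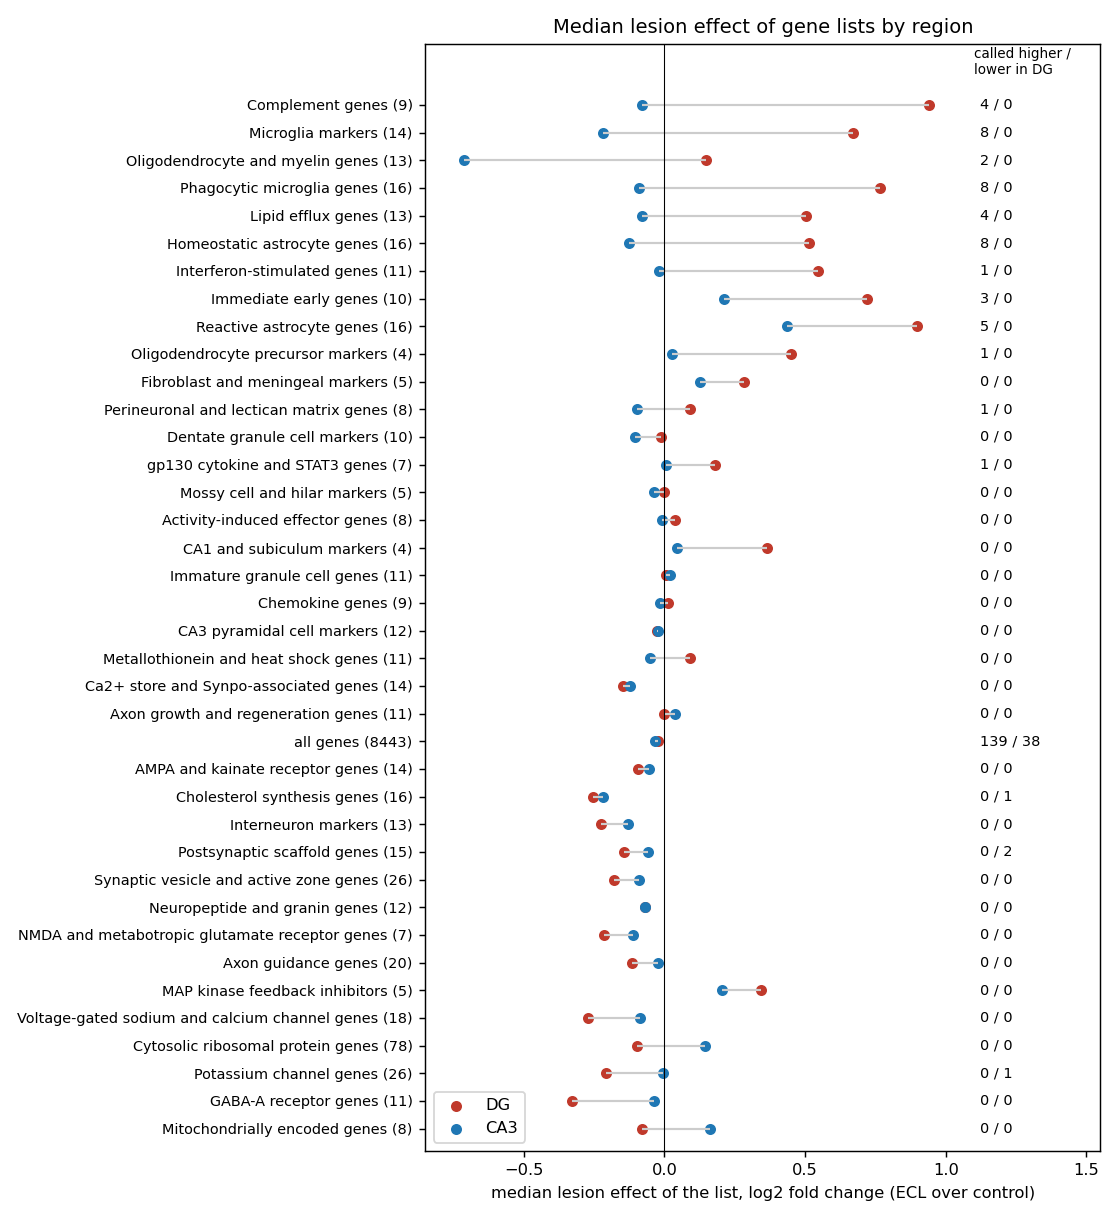
Lesion effects (log2 fold change, horizontal axis) of gene lists in DG and in CA3 of Synpo-/- cultures. Points are the medians over the members with a mean normalized read count over 300, whose number stands in parentheses, and the right-hand column gives the calls for the interaction in each direction. Most glial lists lie further to the right in DG than in CA3, where reactive astrocyte genes (0.44) are also right of 0 and myelin genes (-0.71) are left of it. Among the neuronal lists, GABA-A receptor genes (-0.33) and sodium and calcium channel genes (-0.27) lie furthest to the left in DG.

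Synpo fell in DG. Its reads in these deficient cultures had normalized counts of 917 to 1567 (median 1232) in control DG and of 725, 844, 902 and 917 in lesioned DG, and of 696 to 1054 (median 890) and 776 to 984 (median 898) in CA3. The highest lesioned and the lowest control DG library met at 917, and the CA3 means were 892 ± 120 and 893 ± 70.2. The DG effect of -0.51 ± 0.122 was called (adjusted p = 0.00985) and the interaction of -0.51 ± 0.165 was not (adjusted p = 0.155), though DESeq2 called it (adjusted p = 0.0443).

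Other lists held single calls or none. Bst2, an interferon-stimulated gene that tethers viruses, was the one called of 11 interferon-stimulated genes over the limit (median 0.59), with 1.09 ± 0.275 (adjusted p = 0.0452, called in 9 of 23 fits with 1 library left out). Il6st, the shared receptor chain gp130, was the one called of 7 genes of its pathway (median 0.07), with 0.61 ± 0.153 (adjusted p = 0.0436, 7 of 23), and Bcan, the gene of the matrix proteoglycan brevican, of 8 perineuronal genes (median 0.14), with 0.75 ± 0.179 (adjusted p = 0.0327, 15 of 23). The highest adjusted p of these 3 genes, each time without lesioned DG replicate 1, was 0.108, 0.137 and 0.112. Chemokines (9 over the limit, median 0.03) had 0 calls for the interaction, and Ccl12, a chemokine for monocytes, rose in DG by 0.81 ± 0.243 (adjusted p = 0.0408) with an estimate of 0.91 ± 0.23 in CA3 that was not called (adjusted p = 0.19). There were also 0 calls for the interaction among MAP kinase feedback inhibitors (5, median -0.17), activity-induced effectors (8, median 0.05), axon guidance genes (20, median -0.13), axon growth genes (11, median 0.00), genes of calcium stores and synaptopodin partners (14, median 0.01), metallothionein and heat shock genes (11, median 0.01), proliferation genes (2, median -0.01), endothelial and mural markers (1, -0.18) and fibroblast markers (5, median 0.16). Of 78 cytosolic ribosomal protein genes 0 were called in either region, and their estimates were small, with 15 of 78 positive in DG (median -0.10), 72 of 78 positive in CA3 (median 0.14), a median interaction of -0.23 and 0 calls. Mitochondrially encoded genes (8, median -0.28) also had 0 calls. The 5 sex genes, whose levels follow the sex of the culture, had 0 calls with a median of -0.54. More Xist than Y-linked counts were read in 4 of 7, 2 of 4, 4 of 6 and 3 of 6 libraries of control DG, lesioned DG, control CA3 and lesioned CA3.

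Whether the regional difference in the lesion response depended on the genotype was asked in a fit that added the 16 regional libraries of Synpo+/+ cultures, of which 2 are of control and 3 of lesioned CA3. For 0 of 30550 genes the interaction differed between genotypes in edgeR, where 1289 genes had an unadjusted p under 0.05 and the smallest adjusted p was 1, and DESeq2 and limma voom also called 0 (1347 and 2279 genes at an unadjusted p under 0.05). The interaction within Synpo+/+ libraries was called for 0 genes in that fit (smallest adjusted p 0.161, for Aif1). The 139 genes with the more positive effect in Synpo-/- DG had a median interaction of 0.93 in Synpo-/- and of 0.41 in Synpo+/+ libraries, with the same sign for 133. The 38 others had medians of -0.70 and -0.43, with the same sign for 38. Over all genes past the limit, 54.5% had the same sign in both genotypes. Since these genes were chosen on their Synpo-/- values, the larger size there is no comparison of genotypes. Named examples differed widely. Nr4a2 had 1.86 in Synpo-/- and 1.85 in Synpo+/+ cultures, Abca1 had 0.98 and 0.89, and Aif1 had 1.00 and 1.19. Gfap had 1.25 and 0.56, a difference of 0.69 ± 0.32, and C1qc had 1.56 and 0.41, a difference of 1.15 ± 0.412. Neither difference was called. Both genes were named for their Synpo-/- interaction, which favours a larger value there, so these differences are no test of the genotype. The fit held 2 control CA3 libraries of Synpo+/+ cultures, and whether this number had a part in the 0 calls was not tested. A p over the threshold does not show that the genotypes were alike.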

How the data were processed

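RNA was measured in 23 regional libraries of Synpo-/- cultures, grouped by their labels. Reads of 100 bp were trimmed with cutadapt (3.5 in the submitters' processing notes), mapped to mm10 with STAR (2.7.8a) and assigned to GENCODE genes by the authors with featureCounts (2.0.1), blind to strand. Their unscaled counts for 55291 symbols were deposited, in which overlapping genes and close copies can share reads. No molecular identifiers were used, so the error was taken from the replicates.

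The 4 groups were fitted together in edgeR 4.0.16 (R 4.3.3) with TMM, filterByExpr and its quasi-likelihood test, with Benjamini-Hochberg adjustment across the genes tested. A call took an adjusted p under 0.05 and, as in the study's tables, a mean normalized count above 300. The SE is the log2 fold change over the square root of F. Counts were normalized by effective library size, scaled to a geometric mean of 1 over libraries. Named genes are the 15 with the smallest p in each direction, up to 4 called members of each list (otherwise the most abundant), region markers, Synpo, Egr1, Vim, Abca1, Ptgs2 and Mbp. Members and lists were chosen with earlier results of these data known. The script was tested on simulated data. Alternatives were DESeq2 1.42.0, RLE factors, no filter, limma voom (limma 3.58.1) with sample weights, removal of the length trend (lowess span 0.3, genes with a mean count over 50), a replicate block, all 39 regional libraries in 1 fit, other limits, and leaving out each library. Sex as a term and the omission of 2 CA3 libraries were added after seeing the data.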

Additional observations from a re-analysis of the deposited data

Results flagged for a closer look

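The lesion effect differed between DG and CA3 by the test of the interaction itself for 177 genes.

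In 22 of 296 checks, 1 library stood apart from its group (Dixon's test at 95%), where chance gives about 1 in 20. Control DG replicate 2 was highest for C1qa (2052 against 976 to 1380 normalized counts), C1qb (8140 against 3702 to 5335), Trem2 (2064 against 947 to 1402), Ctsz (2990 against 1271 to 1993) and Plin2 (604 against 328 to 424). Other control DG libraries were apart for Spidr (replicate 3, 483), Bcan (replicate 4, 444) and the summed fibroblast markers (replicate 5, 1319 CPM). In lesioned DG, replicate 1 was low for Ero1l (1079 against 2107 to 2142) and high for Itgam (747) and for C1ql2, a granule cell marker (38.8 against 26.5 to 28.1 CPM), and replicate 3 was high for Tshz3 (979) and Homer2 (663). Control CA3 replicate 1 was highest for the summed granule cell markers (300 CPM), Prox1 (42.4 against 15.2 to 18.3 CPM) and C1ql2 (6.04 against 0.554 to 1.44 CPM). In lesioned CA3, replicate 1 was high for Tshz2 (342 against 115 to 148) and S1pr3 (985), replicate 5 for Bcas1 (492 against 321 to 356), replicate 2 was low for Cox6a2 (189), and replicate 6 was low for Cnp (1194) and for the summed microglial markers (814 CPM).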

How the results depend on the processing

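The 177 calls for the interaction became 434 with DESeq2 (268 more positive in DG, 166 more negative), 295 with limma voom (195 and 100), 301 without the length trend (206 and 95), 284 with no limit on the mean count and 326 with a replicate block nested in lesion (193 and 133). A crossed replicate block gave 123 (113 of them among the 177), and Fos and Btg2 lost the call under both blocks. All 39 regional libraries in 1 fit gave 251 (228 and 23). With 1 library left out the count was 83 to 260, lowest without lesioned DG replicate 1. The 953 DG calls became 1475 with DESeq2, 1721 with no limit, and 543 to 1347 with 1 library left out (543, 569 and 573 without lesioned DG replicate 1, 3 and 4). The 7 CA3 calls became 29 with DESeq2, 14 without the length trend, 4 with the crossed replicate block, 17 with no limit, 11 with a limit of 100, and 1 to 10 with 1 library left out. The nested replicate block gives no effect within a region, since it takes up the lesion. The comparison of genotypes had 0 calls under each alternative. The cause of these shifts was not tested. No named gene called for the interaction changed sign: over the other settings 678 values kept and 30 lost the call, and over libraries left out 1235 kept and 122 lost it. Libraries with one number are not known to share a culture. Their deviations correlated with r of 0.182 to 0.565 in controls and of -0.407 to 0.44 in lesioned cultures, so the numbers were not taken to pair them. Libraries of one number had the same sex by Xist, except for replicate 3 of the lesioned cultures. Between unlike sexes r went down to -0.612, for control DG replicate 2 and control CA3 replicate 6. The main fit had no term for sex. With sex as a term, 256 genes were called for the interaction (192 and 64), 1093 in DG and 8 in CA3. The interaction count was lowest without lesioned DG replicate 1, and next without control CA3 replicate 3 (118) and lesioned DG replicate 2 (120). Libraries of both regions thus moved it. The DG count fell most without lesioned DG replicate 1, 3 or 4, and the CA3 count without single CA3 libraries.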
